A study of Homo sapiens with 8 samples.

Results

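The RNA of 9 transcription factors that direct myeloid differentiation was followed in MV4-11 cells, a human acute myeloid leukemia (AML) line that carries FLT3-ITD and the MLL-AF4 fusion. The genes SPI1, CEBPA, CEBPB, CEBPD, CEBPE, IRF8, KLF4, BCL6 and RUNX1 were taken by symbol from the deposited expression table, in which all 9 of the 9 were found among 26364 genes, and all 9 passed the filter on low values that left 14151 genes for testing. The cells received vehicle (DMSO), tranylcypromine (TCP) at 5 µM, palbociclib (Palbo) at 0.5 µM, or palbociclib at 0.5 µM with TCP at 5 µM (PTCP). Treatment lasted 4 days by the labels, whereas the study's methods describe palbociclib as given a day before the second molecule. Each of the 4 groups had 2 libraries, 8 in all, and nothing states that replicates came from separate cultures, so the spread between them may be technical. All groups come from a single cell line. The study grew such cells on HS-5 stromal cells, but the labels of these libraries do not mention the co-culture. The question put by the design is whether blocking CDK4 and CDK6 together with LSD1 changes the differentiation state of leukemic cells.

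Myeloid differentiation is directed by a small set of DNA-binding proteins that act together on shared enhancers. SPI1 (PU.1), an ETS factor, opens myeloid enhancers and is needed for both monocytes and granulocytes. The C/EBP proteins bind the same DNA element as dimers: CEBPA starts the granulocyte and monocyte program, CEBPE acts late in granulocytes, and CEBPB and CEBPD are prominent in monocytes, macrophages and emergency granulopoiesis. IRF8 and KLF4 favor the monocyte fate, BCL6 is a repressor used by lymphoid cells and macrophages, and RUNX1 is needed for the first steps of blood formation and is often altered in leukemia. Palbociclib inhibits the cyclin-dependent kinases CDK4 and CDK6, which drive entry into S phase. TCP inhibits LSD1, a histone demethylase that limits the enhancer activity of myeloid genes.

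The 5 promoters shown belong to BCL6, KLF4 and CEBPB, which were higher under the combination, and to CEBPA and CEBPE. CEBPA and CEBPE lay higher in Palbo than in PTCP in both libraries, as did 5258 of the 14151 genes tested. The sequences are RefSeq promoters (table built on GRCh38.p14), located in GRCh37, the build of the files, by a single exact match. Each run covers offsets -120 to 29 from the start site, which has offset 0, on the strand of the gene. Capitals mark matches, on either strand, to any of 8 motifs: C/EBP (TTNNGNAA), SPI1 (GAGGAA), IRF (GAAANNGA), RUNX (TGTGGT), BCL6 (TTCNNNGAA), KLF (GGGNGTGG), E2F (TTNGCGC) and the TATA box (TATAAA).
BCL6, chr3:187463227-187463376, minus strand: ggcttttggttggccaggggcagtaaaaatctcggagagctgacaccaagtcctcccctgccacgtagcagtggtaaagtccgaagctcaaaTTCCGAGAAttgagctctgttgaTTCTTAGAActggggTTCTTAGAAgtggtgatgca
KLF4, chr9:110252021-110252170, minus strand: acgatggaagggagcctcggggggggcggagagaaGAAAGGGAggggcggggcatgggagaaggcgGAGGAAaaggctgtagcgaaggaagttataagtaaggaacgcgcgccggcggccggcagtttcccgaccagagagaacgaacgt
CEBPE, chr14:23588435-23588584, minus strand: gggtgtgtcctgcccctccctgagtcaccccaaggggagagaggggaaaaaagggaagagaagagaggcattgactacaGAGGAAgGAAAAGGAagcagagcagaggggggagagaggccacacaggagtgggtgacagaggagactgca
CEBPB, chr20:48807247-48807396, plus strand: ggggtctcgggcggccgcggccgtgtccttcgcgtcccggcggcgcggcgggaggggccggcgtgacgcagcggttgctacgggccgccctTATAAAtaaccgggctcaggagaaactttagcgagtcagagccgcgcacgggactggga
CEBPA, chr19:33793411-33793560, minus strand: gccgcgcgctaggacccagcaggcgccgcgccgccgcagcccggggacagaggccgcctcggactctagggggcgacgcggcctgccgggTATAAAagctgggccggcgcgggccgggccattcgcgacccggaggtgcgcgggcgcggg

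The BCL6 promoter shown holds the BCL6 motif at offsets -28, -5 and 10, all in the stretch shown, and a 4th time at offset 36, outside it. Another RefSeq promoter of BCL6, with its start site at 187454289, holds no BCL6 motif. It has a C/EBP match at offset -26 and a RUNX match at offset -31. The KLF4 and CEBPE promoters each hold the SPI1 motif, at offsets -54 and -41, and the IRF motif, at offsets -85 and -34. The CEBPB and CEBPA promoters shown hold a TATA box at offsets -29 and -30. Outside the stretch shown, the CEBPE promoter holds the BCL6 motif at offset -242 and the CEBPB promoter the KLF motif at offset -224. Another RefSeq promoter of CEBPB, not shown, holds the KLF motif at offset 23 and no TATA box. No base shown lies in more than 1 match. Of the 35116 RefSeq promoters, each with 250 bases before and 50 after a start site, 7.657% hold the BCL6 motif, 27.85% the SPI1 motif, 20.28% the IRF motif and 11.53% the TATA box. The shares for the remaining motifs are 36.84% for C/EBP, 13.07% for RUNX, 17.16% for KLF and 7.811% for E2F. These matches describe the letters of the sequence, and binding was not measured.

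The labelled cell type and the libraries were checked first. All 8 of the 8 AML identity genes (CD33, ANPEP, PTPRC, FLT3, KIT, HOXA9, MEIS1, MPO) reached 1 TPM (a transcript level scaled to gene length and to the library's total) in some library, and 7 of 10 transcription factors of other blood lineages stayed below 1 TPM in every library. KIT reached only 1.48 TPM, less than the other-lineage factors GATA2, PAX5 and TCF7 at their highest (4.26, 1.98 and 1.88 TPM). ANPEP was at 5.27 TPM in Palbo replicate 1 and 21.9 TPM in Palbo replicate 2. FLT3 was lower under PTCP, by -1.71 on the log2 scale (limma adjusted p = 0.00083). It was the sole identity gene that was a DEG there, beside 7.82% of all tested genes that were lower as DEG. The summed level of 12 stromal markers was 147.6 TPM in Palbo replicate 2, against 31.1 TPM in Palbo replicate 1, 22.6 to 35.8 TPM in DMSO and TCP and 43.5 to 56.3 TPM in PTCP. In Palbo replicate 2, COL1A1 was at 22.2 TPM, COL3A1 at 17.5 TPM and FN1 at 23.4 TPM, while POSTN was at 0 in every library. Counts of members under palbociclib are therefore also given without Palbo replicate 2. The part of stromal RNA in those values was not tested. Between 13320 and 13640 genes reached 1 TPM per library, and the 10 most abundant genes held 9.12 to 9.67% of the TPM in DMSO and TCP and 14.0 to 15.8% in Palbo and PTCP. TPM keep no record of sequencing depth, so the counting error behind each value is unknown. In RNA of a whole culture, more cells that express a gene and more of its RNA per cell cannot be told apart.

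In the DMSO libraries the 9 genes fell into an abundant and a scarce set. CEBPA averaged 273 ± 17.0 TPM (SD, n = 2, as for all later means), IRF8 237 ± 38.1 TPM and SPI1 232 ± 25.6 TPM, and the libraries of these 3 neighbours overlapped or lay within each other's spread. CEBPD (125 ± 14.6 TPM), RUNX1 (104 ± 0.628 TPM) and CEBPB (87.7 ± 3.36 TPM) followed without overlap among them. KLF4 (5.77 ± 2.11 TPM), CEBPE (4.64 ± 0.443 TPM) and BCL6 (1.22 ± 0.690 TPM) formed the scarce set, in which KLF4 and CEBPE overlapped. The order differed under PTCP, where SPI1 was highest at 467 ± 42.9 TPM, IRF8, CEBPD and CEBPA overlapped between 254 and 302 TPM, and BCL6 stood above CEBPE. The percentile of BCL6 among the tested genes was 6.784 in DMSO and 50.43 in PTCP.

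A gene was counted as differentially expressed (DEG) when limma gave a log2 fold change of at least 1 in either direction and an adjusted p below 0.01, adjusted by Benjamini-Hochberg over the 14151 genes. All changes below were computed on log2(TPM + 1), where the added 1 shrinks the change of a scarce gene. With palbociclib alone, 3 of the 9 factors were higher as DEG (CEBPD, KLF4 and BCL6) and none was lower, beside 4.54% of all tested genes that were higher. At an adjusted p below 0.05 with no fold minimum, SPI1, CEBPB and CEBPE were added, 6 of 9, beside 14.8% of all genes. Without Palbo replicate 2, 0 of 9 were DEG, beside 2.93% of all genes that were higher, and 4 of 9 had an adjusted p below 0.05 (SPI1, CEBPB, CEBPD and BCL6), beside 9.60%, the lone Palbo library then being assumed to vary as the other groups do.

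With PTCP, 5 of the 9 factors were higher than in DMSO as DEG (SPI1, CEBPB, CEBPD, KLF4 and BCL6), beside 5.87% of all genes, and none was lower, beside 7.82% of all genes. The same 5 passed at an adjusted p below 0.05, beside 15.9% of all genes. No Palbo library enters these fold changes, so leaving out Palbo replicate 2 cannot test them. The median log2 fold change over the 9 was 1.01, against -0.22 over all tested genes. With palbociclib alone these medians were 0.85 and -0.16. The 9 were chosen with earlier results of these data known, so their counts and medians beside all genes are a description. Median-ratio scaling, which brings the median gene to 0, moved the DEG from 830 higher and 1107 lower to 1127 and 662 under PTCP, and from 643 higher and 645 lower to 838 and 395 under palbociclib. Palbo and PTCP were compared with the same DMSO libraries, so the counts are not independent of each other.

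With TCP alone, 0 of 9 were DEG, beside 0.0565% of all genes in either direction. In the main fit, 0 of 9 passed at an adjusted p below 0.05 in limma, beside 0.431%. With a replicate block, which takes equal replicate numbers as pairs, CEBPB and CEBPD passed at 0.05, both lower in TCP. Their limma adjusted p were 0.0218 and 0.0417, and neither was a DEG. The share of all genes at 0.05 with the block is not given here. In the main fit, 4 had an unadjusted p below 0.05 (CEBPA, CEBPB, CEBPD and RUNX1), all lower in TCP, beside 8.77% of all genes in either direction. PTCP was also compared with TCP. There 4 of 9 were higher as DEG (CEBPB, CEBPD, KLF4 and BCL6), beside 5.46% of all genes, and 6 of 9 at an adjusted p below 0.05 (with SPI1 and CEBPA), beside 16.5%. Between PTCP and Palbo, 0 of 9 were DEG, beside 0.459% of genes that were higher, while 5 had an unadjusted p below 0.05, beside 17.5% of all genes in either direction. Without the block, BCL6 alone passed at an adjusted p below 0.05, beside 2.05% of genes that were higher. With the block, KLF4 passed as well (limma adjusted p = 0.0360). Separation of 2 libraries from 2 was common among the 14151 genes. Both libraries lay above both DMSO libraries for 1749 genes in TCP, 3756 in Palbo and 3685 in PTCP. Both lay below for 3156, 7033 and 7664 genes. Both PTCP libraries lay above both Palbo libraries for 2343 genes and below for 5258. Where libraries are said below not to overlap, this is a description only.

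**Figure D1:**
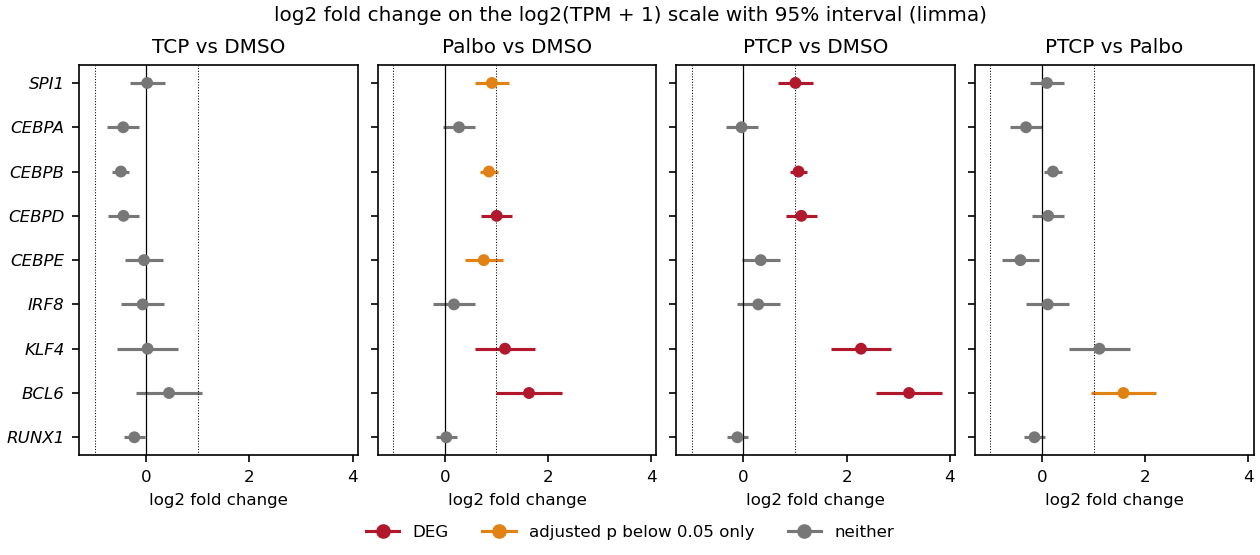
log2 fold change on the log2(TPM + 1) scale (horizontal axes) with its 95% confidence interval from limma for the 9 transcription factors (vertical axis) in 4 comparisons, with dotted lines at 1 in either direction. DEG are red, genes with an adjusted p below 0.05 alone are orange and the others grey, and the intervals of KLF4 and BCL6 lie farthest to the right under PTCP.

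SPI1 (chr11:47376411-47400098, minus strand) was read at 214 and 250.1 TPM in DMSO, 208 and 264 TPM in TCP, 409.8 and 464 TPM in Palbo, and 437 and 497 TPM in PTCP. Both libraries of Palbo and of PTCP lay above all 4 libraries without palbociclib, and the Palbo and PTCP libraries overlapped. The log2 fold change was 0.91 ± 0.14 (SE) under palbociclib and 1.01 ± 0.14 under PTCP, with limma adjusted p of 0.00252 and 0.00121. The second lies just past the fold threshold, and SPI1 was no DEG under PTCP without DMSO replicate 1 (0.90) or PTCP replicate 2 (0.91). TCP and DMSO libraries overlapped, with a difference of 0.02 and a 95% interval from -0.32 to 0.35. Of the 11107 genes searched, MYL6 (r = 0.998) and TNFAIP8L2 (r = 0.998) were most like SPI1 across the 8 libraries, a description over libraries that share 4 treatments.

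CEBPA (chr19:33790840-33793440, minus strand) was read at 261 and 285 TPM in DMSO, 175 and 228 TPM in TCP, 343 and 317 TPM in Palbo, and 278 and 254 TPM in PTCP. Both TCP libraries lay below both DMSO libraries, both Palbo libraries lay above, and PTCP overlapped with DMSO. None of these differences from DMSO passed in limma: the log2 fold change was -0.45 under TCP (adjusted p = 0.329), 0.27 under palbociclib (adjusted p = 0.129) and -0.04 under PTCP (95% interval -0.35 to 0.27). The last turned to 0.06 under quantile normalization and 0.21 under median-ratio scaling. Against TCP, PTCP was higher by 0.41 (limma adjusted p = 0.0355), but this was 0.22 without TCP replicate 1 (adjusted p = 0.125), and the adjusted p was above 0.05 in 7 of the 8 fits that left out a library, up to 0.163. Averaged over the absence and presence of TCP, palbociclib gave 0.34 (limma adjusted p = 0.0150), with an adjusted p of up to 0.0556 and above 0.05 in 3 of the 8 fits, those without DMSO replicate 1, Palbo replicate 1 or PTCP replicate 1. Averaged in the same way, TCP gave -0.38, with an adjusted p of 0.0755 that became 0.0492 with the replicate block.

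CEBPB (chr20:48807367-48809205, plus strand) was read at 85.4 and 90.1 TPM in DMSO, 61.5 and 62.6 TPM in TCP, 154 and 166 TPM in Palbo, and 185 and 185 TPM in PTCP. The 4 groups did not overlap, with TCP lowest and PTCP highest. The log2 fold change was 0.85 ± 0.07 (SE) under palbociclib (adjusted p = 0.000257) and 1.07 ± 0.07 under PTCP (adjusted p = 6.44e-05, limma for both). Under TCP it was -0.49, with a limma adjusted p of 0.0502 that became 0.0218 with the replicate block. From Palbo to PTCP it was 0.21 (limma adjusted p = 0.183). CEBPB-AS1, an antisense gene that shares 231 exon bases with CEBPB, followed the same order at 28.3 and 30.3 TPM in DMSO, 20.9 and 20.3 TPM in TCP, 41.8 and 47.8 TPM in Palbo, and 54.5 and 56.4 TPM in PTCP. The libraries were made with a stranded kit, but whether strand was used in counting is not given in the sources used here, so reads of this pair may not be told apart. CEBPA, KLF4 and BCL6 also share exon bases with genes annotated on the opposite strand, which were not found under their annotated names in the deposited expression table.

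CEBPD was read at 114 and 135 TPM in DMSO, 82.8 and 100.5 TPM in TCP, 233 and 269 TPM in Palbo, and 265 and 279 TPM in PTCP. Both TCP libraries lay below DMSO, and all libraries with palbociclib lay above DMSO, with Palbo and PTCP overlapping. The log2 fold change was 1.004 ± 0.13 (SE) under palbociclib (adjusted p = 0.00117) and 1.12 ± 0.13 under PTCP (adjusted p = 0.000483, limma for both). The first lies on the fold threshold and was 0.88 without DMSO replicate 1 and 0.90 without Palbo replicate 2 (adjusted p = 0.00942 and 0.0116). Under TCP it was -0.44, with an adjusted p of 0.329 that became 0.0417 with the replicate block.

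CEBPE (chr14:23586245-23589465, minus strand), the late granulocyte member, was read at 4.32 and 4.95 TPM in DMSO, 4.80 and 4.14 TPM in TCP, 7.65 and 9.41 TPM in Palbo, and 5.56 and 6.68 TPM in PTCP. Palbo was highest without overlap, PTCP lay between, and TCP overlapped with DMSO. The log2 fold change under palbociclib was 0.75 ± 0.15 (SE, limma adjusted p = 0.00744), which became 0.62 with an adjusted p of 0.0549 without Palbo replicate 2. Under PTCP it was 0.33 (adjusted p = 0.108), and from Palbo to PTCP it was -0.42 (95% interval -0.78 to -0.05, adjusted p = 0.226), so a fall between them was not shown after adjustment. BTD (r = 0.985) and CD72 (r = 0.973) were most like CEBPE across the 8 libraries.

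The C/EBP family was also viewed as a whole, since its proteins form dimers with each other. The TPM of CEBPA, CEBPB, CEBPD, CEBPE and CEBPG, a widely expressed member that lacks an activation domain, summed to 588 and 626 TPM in DMSO, 427 and 486 TPM in TCP, 822 and 842 TPM in Palbo, and 816 and 799 TPM in PTCP. The share of CEBPA was 44.9 ± 0.820% in DMSO, 39.7 ± 2.87% in Palbo and 32.9 ± 1.63% in PTCP. The shares of CEBPB (14.5 ± 0.0849%, 19.2 ± 0.700% and 22.9 ± 0.352%) and CEBPD (20.5 ± 1.51%, 30.1 ± 2.59% and 33.7 ± 1.78%) were larger in the same order of groups. In TCP the share of CEBPA was 43.9 ± 4.19%, and its libraries overlapped with those of Palbo. CEBPG held 19.3 ± 2.28% in DMSO and 9.75 ± 0.611% in PTCP, and CEBPE between 0.681 and 1.12% in every library. In single libraries, CEBPD was 0.439 and 0.475 of the CEBPA level in DMSO and 0.952 and 1.10 in PTCP. With 2 libraries against 2, an exact two-sided permutation test of such shares cannot give a p below 0.333, so they are a description.

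**Figure D2:**
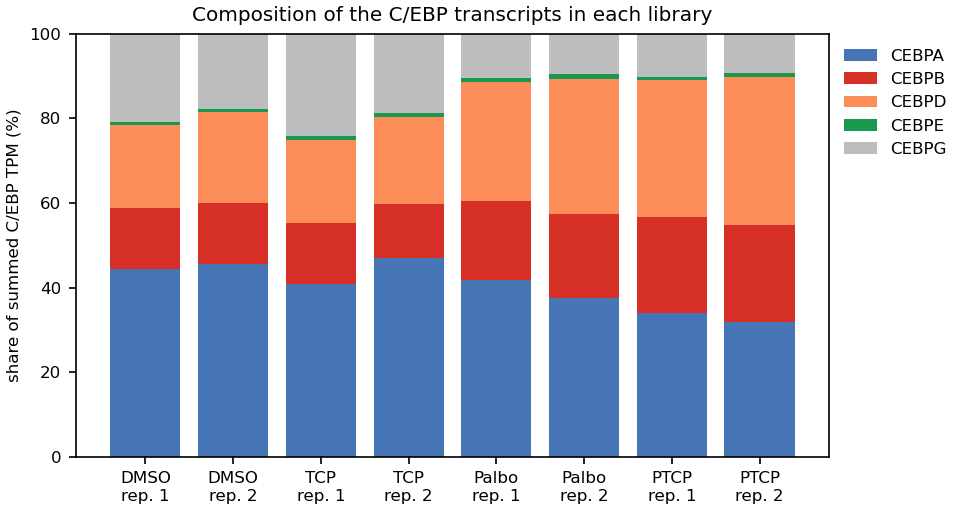
Share of each C/EBP gene in the summed C/EBP TPM (vertical axis, percent) in each of the 8 libraries (horizontal axis). The CEBPA part is 44.3 and 45.5% in DMSO and 34.1 and 31.8% in PTCP, while the CEBPB and CEBPD parts are larger in the 4 libraries with palbociclib.

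Of 3 further genes listed by symbol or family, CEBPG, CEBPZ and DDIT3, all were lower under PTCP at a limma adjusted p below 0.05. This threshold was passed in that direction by 37.6% of all tested genes. CEBPZ was listed for its symbol and is not counted among the C/EBP genes summed above. DDIT3 (CHOP), a stress-induced member that blocks other C/EBP proteins, was a DEG there, at 133 and 95.4 TPM in DMSO and 34.3 and 37.5 TPM in PTCP (log2 fold change -1.63, limma adjusted p = 0.00181).

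IRF8 (chr16:85932722-85956212, plus strand) was read at 210.1 and 264 TPM in DMSO, 192 and 262 TPM in TCP, 289 and 245 TPM in Palbo, and 302 and 274 TPM in PTCP. The DMSO, TCP and Palbo libraries overlapped, and both PTCP libraries lay above both DMSO libraries. It passed in none of the comparisons in limma: under PTCP the log2 fold change was 0.29 (95% interval -0.13 to 0.70, adjusted p = 0.208). MIR6774 (r = 0.968) and AAGAB (r = 0.965) were most like IRF8 across the 8 libraries. Among 7 other IRF genes, IRF5, a factor of inflammatory macrophages, was higher under PTCP, at 18.5 and 16.6 TPM in DMSO and 52.4 and 52.6 TPM in PTCP (1.53, limma adjusted p = 3.59e-05). IRF1, an interferon-induced factor, was lower, at 58.6 and 55.4 TPM in DMSO and 29.9 and 26.2 TPM in PTCP (-1.002, limma adjusted p = 0.000237). These were the 2 IRF genes that were DEG under PTCP, where 5.87% of all genes were higher and 7.82% lower.

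KLF4 (chr9:110247133-110252763, minus strand) was read at 7.26 and 4.27 TPM in DMSO, 6.89 and 4.71 TPM in TCP, 12.2 and 15.6 TPM in Palbo, and 31.5 and 30.5 TPM in PTCP. DMSO and TCP overlapped, Palbo lay above them and PTCP above Palbo, with no overlap. The log2 fold change was 2.28 ± 0.25 (SE) under PTCP (limma adjusted p = 0.000382) and 1.17 ± 0.25 under palbociclib (limma adjusted p = 0.00842). The second was no DEG without DMSO replicate 2 (0.84) or without either Palbo library (1.33 without replicate 1, 1.005 without replicate 2, with an adjusted p of 0.0592 at the latter), nor without either PTCP library. From Palbo to PTCP it was 1.11, with an adjusted p of 0.0638 that became 0.0360 with the replicate block. Of 5 other KLF genes, none was a DEG under PTCP in limma, while KLF13 was higher (0.57, adjusted p = 0.00200) and KLF10 lower (-0.42, adjusted p = 0.00719), beside 15.9% and 37.6% of all genes at an adjusted p below 0.05. ANXA5 (r = 0.993) and BRI3 (r = 0.993) were most like KLF4 across the 8 libraries.

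BCL6 (chr3:187439165-187463513, minus strand) was read at 0.734 and 1.71 TPM in DMSO, 2.12 and 1.77 TPM in TCP, 4.48 and 7.22 TPM in Palbo, and 17.9 and 20.2 TPM in PTCP. The groups did not overlap, in the order DMSO, TCP, Palbo and PTCP, but the DMSO and TCP libraries next to each other differed by less than the spread within DMSO. The mean under PTCP was 3.26 times that of Palbo and 15.6 times that of DMSO, the latter resting on scarce control values: it was 26.0 times DMSO replicate 1 alone and 11.2 times DMSO replicate 2 alone. On the log2(TPM + 1) scale the change was 3.21 ± 0.27 (SE) under PTCP (limma adjusted p = 0.000136) and 1.63 ± 0.27 under palbociclib (limma adjusted p = 0.00302). The latter was no DEG without DMSO replicate 1 (1.31, adjusted p = 0.0167) or Palbo replicate 2 (1.34, adjusted p = 0.0220). From Palbo to PTCP it was 1.58 (95% interval 0.95 to 2.21, limma adjusted p = 0.0302). This passed the looser threshold with all libraries, and the adjusted p was 0.177 without Palbo replicate 1, 0.0661 without Palbo replicate 2, 0.160 without PTCP replicate 1 and 0.191 without PTCP replicate 2. Of 4 tested genes among the BCL6 relative and corepressors, NCOR1 (-0.69, adjusted p = 0.00109) and BCOR (-0.55, adjusted p = 0.00503) were lower under PTCP in limma, with no DEG among them. This is 2 of 4, beside the 37.6% of all genes that were lower at an adjusted p below 0.05.

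RUNX1 (chr21:36160098-37376965, minus strand) was read at 103 and 104 TPM in DMSO, 91.6 and 85.0 TPM in TCP, 100.4 and 112 TPM in Palbo, and 91.8 and 99.5 TPM in PTCP. Both TCP and both PTCP libraries lay below DMSO, as they did for 3156 and 7664 of the 14151 genes tested, while Palbo overlapped with it. No comparison passed in limma, and the log2 fold change under PTCP was -0.12 (95% interval -0.32 to 0.08), which turned to 0.07 under quantile normalization and 0.13 under median-ratio scaling. Its partner CBFB, which stabilizes RUNX proteins on DNA, was lower under PTCP, at 193 and 182 TPM in DMSO and 114 and 109 TPM in PTCP (-0.74, limma adjusted p = 0.000373). RUNX2 was lower too (-0.90, adjusted p = 0.00184), and CBFA2T3, a corepressor, was higher (0.50, adjusted p = 0.00175), the 3 genes that passed at 0.05 of the 5 tested, beside 37.6% of all genes that were lower and 15.9% that were higher. Of 7 ETS relatives of SPI1, none was a DEG under PTCP, and 4 were lower and 1 higher at an adjusted p below 0.05 in limma, against the same shares of all genes.

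Each drug was then averaged over the presence and absence of the other. Palbociclib gave 4 higher DEG among the 9 (CEBPB, CEBPD, KLF4 and BCL6), beside 5.16% of all genes, and 7 of 9 at an adjusted p below 0.05, beside 20.4%, leaving IRF8 and RUNX1. TCP gave 0 DEG among the 9, beside 0.473% of genes that were higher. At an adjusted p below 0.05 there was 1, BCL6 (1.01, limma adjusted p = 0.0343), beside 2.32%. An unadjusted p below 0.05 was found for 5, beside 20.0% of all genes in either direction. With the replicate block, CEBPA passed at 0.05 as well, lower with TCP (-0.38, limma adjusted p = 0.0492). The adjusted p of BCL6 was above 0.05 in 6 of the 8 fits that left out a library, up to 0.142, and below it without DMSO replicate 2 or Palbo replicate 2. The interaction, the change with TCP in the presence of palbociclib minus the change in its absence, passed for 0 of 9 and for 0% of all genes at both thresholds in limma, with 904 genes (6.39%) at an unadjusted p below 0.05. Of the members, 4 had such an unadjusted p, all with a positive interaction: CEBPB (0.71), CEBPD (0.56), KLF4 (1.09) and BCL6 (1.14). Whether TCP acted on these genes differently with palbociclib was therefore not shown after adjustment.

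Genes known as targets of the factors were counted by list. The lists were chosen with earlier results of these data known, and the lists themselves were not tested. Of 11 tested SPI1 targets, 9 were higher DEG under PTCP and 7 under palbociclib (6 without Palbo replicate 2), with none lower, beside 5.87% and 4.54% of all genes that were higher. The median log2 fold change of the list was 2.25 under PTCP, against -0.22 over all genes. CD14, a monocyte receptor for bacterial products, was at 0.943 and 2.07 TPM in DMSO, 77.0 and 68.0 TPM in Palbo, and 374 and 359 TPM in PTCP. CSF1R, the receptor of the macrophage growth factor, was at 14.6 and 14.7 TPM in DMSO, 36.4 and 37.9 TPM in Palbo, and 86.9 and 90.7 TPM in PTCP. For both, the groups did not overlap and PTCP was highest. CYBB, a subunit of the phagocyte oxidase, gave a log2 fold change of 5.62 under PTCP (limma adjusted p = 0.000150).

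Of 16 C/EBP targets listed, 12 were tested. Among these, 9 were higher DEG under palbociclib and 9 under PTCP, with none lower, beside 4.54% and 5.87% of all genes that were higher. BPI, named for its level, and S100A12 stayed below 1 TPM in both DMSO libraries. They passed the filter on low values through treated libraries, so their place among the tested genes depended on treated values. S100A8, S100A9 and S100A12, calcium-binding proteins of monocytes and neutrophils, gave log2 fold changes of 9.44, 8.59 and 8.57 under PTCP, and LYZ, which encodes lysozyme, gave 5.89, with limma adjusted p between 3.40e-06 and 0.000173. Between PTCP and Palbo the list divided. ELANE, AZU1 and PRTN3, proteases and a protease-like protein of primary granules, were lower in PTCP (-0.79, -0.53 and -0.89, with limma adjusted p of 0.00782, 0.0250 and 0.0287), and S100A8, S100A9 and S100A12 were higher (2.22, 1.94 and 5.75, with limma adjusted p of 0.0353, 0.00649 and 0.00199). These 3 and 3 genes were named after their values were seen. The listed granule genes LTF, LCN2, CAMP and MMP8 stayed below 1 TPM in every library and were not tested.

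**Figure D3:**
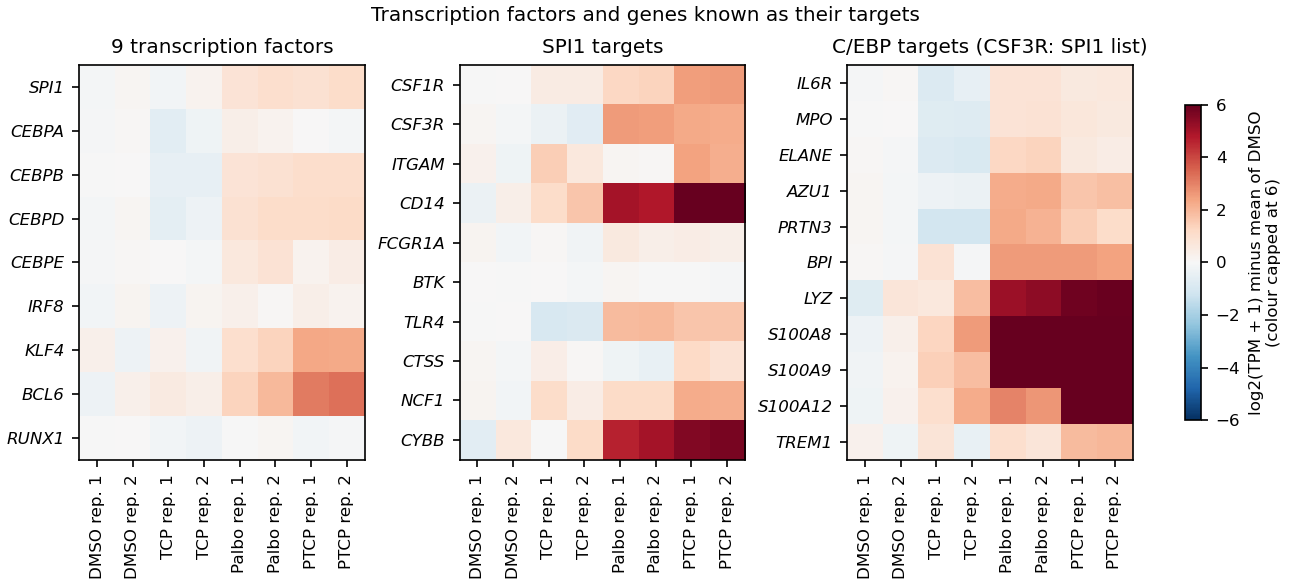
log2(TPM + 1) minus the mean of the DMSO libraries (color, capped at 6) for the 9 transcription factors, 10 SPI1 targets and 11 further C/EBP targets (rows) in the 8 libraries (columns). CD14, CYBB, LYZ, S100A8 and S100A9 stand out in the 4 libraries with palbociclib, with larger differences than those of any of the 9 factors.

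Of 8 IRF8 targets, a list that includes KLF4 and shares genes such as CTSS and CYBB with the SPI1 list, 5 were higher and 1 was lower as DEG under PTCP, beside 5.87% and 7.82% of all genes. NAIP, an inflammasome sensor, was at 1.56 and 1.87 TPM in DMSO, 18.8 and 21.7 TPM in Palbo, and 20.6 and 25.6 TPM in PTCP. IL18, a cytokine gene, was the lower one (-1.31, limma adjusted p = 0.00862). Its adjusted p lay close to the threshold of 0.01, and no Palbo library enters its fold change. Of 11 tested genes known to be repressed by BCL6, 2 were higher and 2 lower as DEG under PTCP, beside 5.87% and 7.82% of all genes, and the median of the list was -0.28, near the -0.22 of all genes. GPR183 (3.31) and CXCR4 (1.21), receptors that guide cell migration, were the higher ones, and CHEK1 (-2.19), a checkpoint kinase, and BCL2 (-1.91), which prevents apoptosis, were the lower ones.

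Of 12 tested further transcription factors of monocytes and macrophages, 2 were higher and 3 lower as DEG under PTCP, beside 5.87% and 7.82% of all genes. RARA, a retinoic acid receptor, was among the higher ones (1.04, limma adjusted p = 0.000199). The lower ones were the immediate-early genes EGR1 (-2.11), ATF3 (-1.92) and NR4A1 (-1.27), with limma adjusted p between 0.00219 and 0.00560.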

How the data were processed

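Messenger RNA of 8 MV4-11 libraries was sequenced from a stranded kit. The authors aligned reads to GRCh37 with Subread, counted them per gene with featureCounts 1.6.4 and deposited TPM, which are scaled to gene length and to a total of 1000000, so depth is unknown. The submitters' processing notes also name SAMtools 1.9 and DESeq2 1.26.0. The counting annotation and strand setting are not given in the sources used here. Columns of other samples in the table numbered 0.

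From the deposited TPM, log2(TPM + 1) was fitted with limma 3.58.1 in R 4.3.3, in 1 model of the 4 groups with a mean-variance trend, for the 14151 genes that reached 1 TPM in 2 or more libraries. P-values were adjusted by Benjamini-Hochberg over all of them. DEG needed a log2 fold change of at least 1 and an adjusted p below 0.01. The script was tested on simulated data. Genes are placed by GENCODE on GRCh37, and promoters come from RefSeq. The sequence of CEBPD was not used, and CEBPD was left out before entries were counted. Of the other members, 7 have 10 entries, and SPI1 has none.

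The members and gene lists were chosen with earlier results of these data known. All 9 members are named in every comparison, and per list up to 4 DEG with the largest change under PTCP whose higher group averaged 5 TPM or more, next to relatives of the members, antisense genes and, for SPI1, CEBPE, IRF8 and KLF4, the 2 genes of most similar pattern by Pearson's r. Genes outside this rule are marked where named, and some genes that it covers are not reported here.

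Replicate numbers 1 and 2 recur in each group. Libraries with the same number deviated together from the means of their groups, with r across genes of 0.169 to 0.491 over the 6 pairs of groups. The numbers were thus taken as pairs, on this evidence only, since no label explains them. The main model has no block. Alternatives were a pseudocount of 0.1, no filter, a minimum mean of 5 TPM, quantile normalization, median-ratio scaling, the replicate block, only the groups compared, no trend, an adjusted p below 0.05 with no fold minimum, and each library left out.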

Additional observations from a re-analysis of the deposited data

Results flagged for a closer look

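The CEBPB libraries separated in opposite directions with TCP. Both TCP libraries (61.5 and 62.6 TPM) lay below both DMSO libraries (85.4 and 90.1 TPM). Both PTCP libraries (185 and 185 TPM) lay above both Palbo libraries (154 and 166 TPM). Taken alone, the first separation was found for 3156 and the second for 2343 of the 14151 genes tested. The log2 fold change was -0.49 under TCP (limma adjusted p = 0.0502). From Palbo to PTCP it was 0.21 (limma adjusted p = 0.183). Neither passed at 0.05 without the replicate block. The difference between these changes, the interaction, was 0.71 ± 0.10 (SE) on the log2 scale, with a limma adjusted p of 0.200 over all genes and 0.0873 with the replicate block, so it did not pass the correction. No group had enough libraries to look for an outlying one.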

How the results depend on the processing

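Each group had 2 libraries, and depth is unknown, so small differences of abundant genes and all values of scarce genes are poorly bounded. The DEG count among the 9 factors under palbociclib, 3, depended most on the processing: it was 6 at an adjusted p below 0.05 with no fold minimum, 5 with median-ratio scaling, 1 with only the groups compared, and 0 to 3 with each library left out (1 without DMSO replicate 1 and 0 without Palbo replicate 2). With the looser threshold the count was 1 for PTCP against Palbo, 7 for the mean effect of palbociclib and 1 for the mean effect of TCP. Counts at an adjusted p below 0.05, an alternative added after seeing the data, ran from 4 to 7 for palbociclib and stayed at 5 for PTCP with each library left out. The DEG count under PTCP was 4 to 5. The replicate block changed no DEG call of a member, and the pairing moved 4 adjusted p across 0.05, given beside CEBPB, CEBPD, KLF4 and CEBPA.

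Of 1197 values of members under alternatives, 27 changed sign, in 13 of 72 results, and none of the 27 was a DEG. For CEBPA under PTCP the value was 0.0603 with quantile normalization and 0.209 with median-ratio scaling, and for RUNX1 0.0678 and 0.126. The other sign changes came from leaving out a library. With each library left out, the change under TCP ran from -0.156 to 0.191 for SPI1, -0.131 to 0.0428 for CEBPE, -0.293 to 0.152 for IRF8 and -0.298 to 0.348 for KLF4. It ran from -0.0462 to 0.104 for RUNX1 under palbociclib, from -0.103 to 0.0292 for CEBPA under PTCP and from -0.00676 to 0.228 for IRF8 between PTCP and Palbo. The interaction ran from -0.0947 to 0.251 for SPI1, -0.0541 to 0.326 for CEBPA and -0.0415 to 0.404 for IRF8, and the mean effect of TCP from -0.0299 to 0.143 for SPI1 and -0.0914 to 0.131 for IRF8. The cause of these changes was not tested.

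The share of CEBPA in the C/EBP sum, differed by -12.0 points between PTCP and DMSO and by -19.2 without CEBPG and -6.30 with DDIT3 added. That of CEBPB, 8.44 points higher, was 7.44 and 9.76, and that of CEBPD, 13.2 points higher, was 14.9 with DDIT3 added. No direction changed.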
